A study of Mus musculus with 38 samples.

Results

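Fibrillar collagens and the collagen-binding protein SPARC were followed through 38 tissue segments of mouse liver. The members are *Col1a1*, *Col1a2*, *Col3a1* and *Sparc*, and they are 4 of the 10547 genes in the count table. They were chosen by name and not by a cut on their values, but with earlier results of these data known. *Col1a1* and *Col1a2* encode the chains that wind into type I collagen, the main fibre of scar tissue, and *Col3a1* encodes the chain of type III collagen, which forms thinner fibres alongside type I. *Sparc* encodes a matricellular protein that binds collagen outside the cell and takes part in the assembly of fibrils. In the liver these genes are made mainly by portal fibroblasts and hepatic stellate cells, which turn into myofibroblasts when bile flow is obstructed, and the scar then forms first around the portal tracts. Cholangiocytes and macrophages are not regarded as the main makers of fibrillar collagen.

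The liver sections came from wild type (WT) mice and from *TrailΔmye* mice, in which Cre recombinase driven by the myeloid *Lyz2* promoter removes a floxed *Tnfsf10* gene, which encodes the death ligand TRAIL. The mice were 6 to 8 weeks old when feeding began, and received over 21 days 3 rounds of 5 days of feed that held 0.1% DDC, which damages the bile ducts, or of control feed, with 3 days of chow between rounds, before euthanasia on day 22. Regions of interest (ROIs) were drawn on fixed sections either at a ductular reaction or in the parenchyma away from it. They were segmented by staining for PanCK, which marks cholangiocytes, and IBA1, which marks macrophages, and each segment was read with probes against the mouse transcriptome. The PanCK+ class held 3 control diet-fed WT, 4 DDC-fed WT, 4 control diet-fed *TrailΔmye* and 5 DDC-fed *TrailΔmye* segments. For the same groups there were 2, 4, 4 and 5 periportal and 1, 2, 2 and 2 parenchymal IBA1+ segments. No label names the animal or the section of a segment. Since segments may share an animal, the p-values measure the spread between segments and are too small to stand for animals. *Tnfsf10* itself was not analysed here.

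The segment classes carried the markers of their labels. The summed level of 10 cholangiocyte markers was 587 to 2272 in PanCK+ segments and 43.3 to 399 in IBA1+ segments, on the scale of Q3-normalized counts, which gives every segment the same 75th percentile. The summed level of 10 macrophage markers was 352 to 1155 in periportal IBA1+ segments and 52.5 to 160 in PanCK+ segments. The total count of a segment ran from 20319 to 836971, with a median of 52843. Depth moved with the groups. The PanCK+ and periportal IBA1+ segments of DDC-fed *TrailΔmye* mice held 158219 to 836971 counts and those of DDC-fed WT mice 20319 to 61665. In the parenchyma of *TrailΔmye* mice the order was turned, with 252265 and 265758 counts on the control diet and 33832 and 48357 on DDC. The 75th percentile that sets the scale was 2 to 3 counts in WT periportal IBA1+ segments. There 45.6% to 70.3% of the genes were at 1 count, so that the scaling of these segments is coarse. In periportal IBA1+ segments of DDC-fed *TrailΔmye* mice the percentile was 13 to 53 counts. Thinning every segment of a fit to the smallest total is the 1 check on depth that was made, and its values stand beside the calls and signs it changed. Both segments of ROI 035, from a DDC-fed *TrailΔmye* liver, stood apart with totals of 836971 and 568719 and with 43.1 and 27.8 counts of the negative probe, which matches no mouse transcript, against at most 6.08 in any other segment. The fitted results that use this ROI's DDC segments directly are also given without them. A segment is a mixture of cells, so that more cells of a type and more RNA per cell cannot be told apart.

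The members lie on 3 chromosomes of the GRCm38.p6 assembly (RefSeq). *Col3a1* was annotated at chr1:45311538-45349706, *Col1a2* at chr6:4505618-4541543, *Sparc* at chr11:55394159-55420080 and *Col1a1* at chr11:94936224-94953042. The 250 bases before the annotated start of *Col1a2* (chr6:4505368-4505617, plus strand), *Col3a1* (chr1:45311288-45311537, plus strand) and *Sparc* (chr11:55420081-55420330, minus strand) are printed below 5′ to 3′. A link between these sequences and the levels of the genes was not tested. Capitals mark matches on either strand to short promoter strings. These are TATAAA, the core of the TATA box to which the basal machinery binds, CCAAT, where the NF-Y complex can bind, GGGCGG, the box read by the Sp1 family of activators, and CAGAC, the string recognised by SMAD proteins, which carry the TGF-β signal.
Col1a2: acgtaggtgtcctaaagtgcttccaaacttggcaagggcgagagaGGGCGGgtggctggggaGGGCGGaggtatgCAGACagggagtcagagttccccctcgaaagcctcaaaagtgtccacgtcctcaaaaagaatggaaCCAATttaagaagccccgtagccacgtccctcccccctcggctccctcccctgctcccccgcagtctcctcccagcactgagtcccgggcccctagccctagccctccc
Col3a1: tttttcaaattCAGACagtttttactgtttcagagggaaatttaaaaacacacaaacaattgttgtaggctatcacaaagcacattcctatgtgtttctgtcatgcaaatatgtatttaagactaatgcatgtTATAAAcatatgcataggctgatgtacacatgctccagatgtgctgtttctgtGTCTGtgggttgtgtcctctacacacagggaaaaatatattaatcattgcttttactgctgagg
Sparc: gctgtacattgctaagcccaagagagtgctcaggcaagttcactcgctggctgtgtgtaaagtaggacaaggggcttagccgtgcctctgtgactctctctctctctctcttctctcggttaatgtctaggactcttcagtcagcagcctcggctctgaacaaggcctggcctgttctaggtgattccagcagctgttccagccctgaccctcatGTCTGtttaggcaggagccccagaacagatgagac

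The 3 windows differed in base composition and in the letters they held. GC content was 62.0% for *Col1a2*, 35.2% for *Col3a1* and 54.0% for *Sparc*. The *Col1a2* window held GGGCGG at positions -205 and -188, counted from the annotated start, CAGAC at -175 and CCAAT at -109. The *Col3a1* window held TATAAA at -117, CAGAC at -239 and its reverse complement GTCTG at -64. The *Sparc* window held GTCTG at -35. Among 32851 mouse promoters of the same length, TATAAA or its reverse complement occurred in 12.4%, CCAAT in 33.8%, GGGCGG in 32.7% and CAGAC in 42.2%. CAGAC or its reverse complement was thus present in all 3 windows, and it is a common string. A match of letters is a description and not a measured binding site.

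All 4 genes were highest in the periportal IBA1+ segments of DDC-fed mice, next highest in the PanCK+ segments of the same ROIs, and low in every segment class on the control diet. *Col1a1* averaged 316 ± 106 (SD, n = 4) in periportal IBA1+ segments of DDC-fed WT mice and 290 ± 125 (n = 5) in those of DDC-fed *TrailΔmye* mice, as Q3-normalized counts. In PanCK+ segments it averaged 100 ± 30.6 and 54.5 ± 27.3 in the same mice. For *Col1a1*, *Col1a2* and *Col3a1*, the ranges of the DDC-fed periportal IBA1+ groups did not overlap those of the DDC-fed PanCK+ groups. *Sparc* ranges overlapped between these classes. Below the DDC-fed PanCK+ groups, most neighbours in the order of means overlapped for each gene.

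Most control-diet levels sat close to the negative probe. In WT control segments of the 3 classes, the 4 genes were read at 1 to 4 counts, and the negative probe at 1.00 to 1.15 counts. Over both genotypes, *Col1a1* reached 3 times the negative probe in 5 of 16 control-diet segments, *Col1a2* in 3, *Col3a1* in 9 and *Sparc* in 8. In the 22 DDC segments the numbers were 21, 19, 21 and 22. A fold change over the control diet therefore often divides by a level near the background, and in WT it is set by a handful of counts. *Col3a1* stood higher in the periportal classes of control *TrailΔmye* mice, but was at 1.09 and 2.14 times the negative probe in their 2 parenchymal segments. In these mice *Col3a1* was at 4.73 to 15.9 times the negative probe in PanCK+ and 4.88 to 20.0 times in periportal IBA1+ segments. The 4 genes summed held 0.458% to 1.13% of all counts in the periportal IBA1+ segments of DDC-fed mice. Their share was 0.122% to 0.346% in the PanCK+ segments of DDC-fed mice, and at most 0.113% in any control-diet segment. The highest share was that of ROI 011 of a DDC-fed WT liver (exact binomial 95% confidence interval 0.991% to 1.29%, counting error only).

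**Figure D1:**
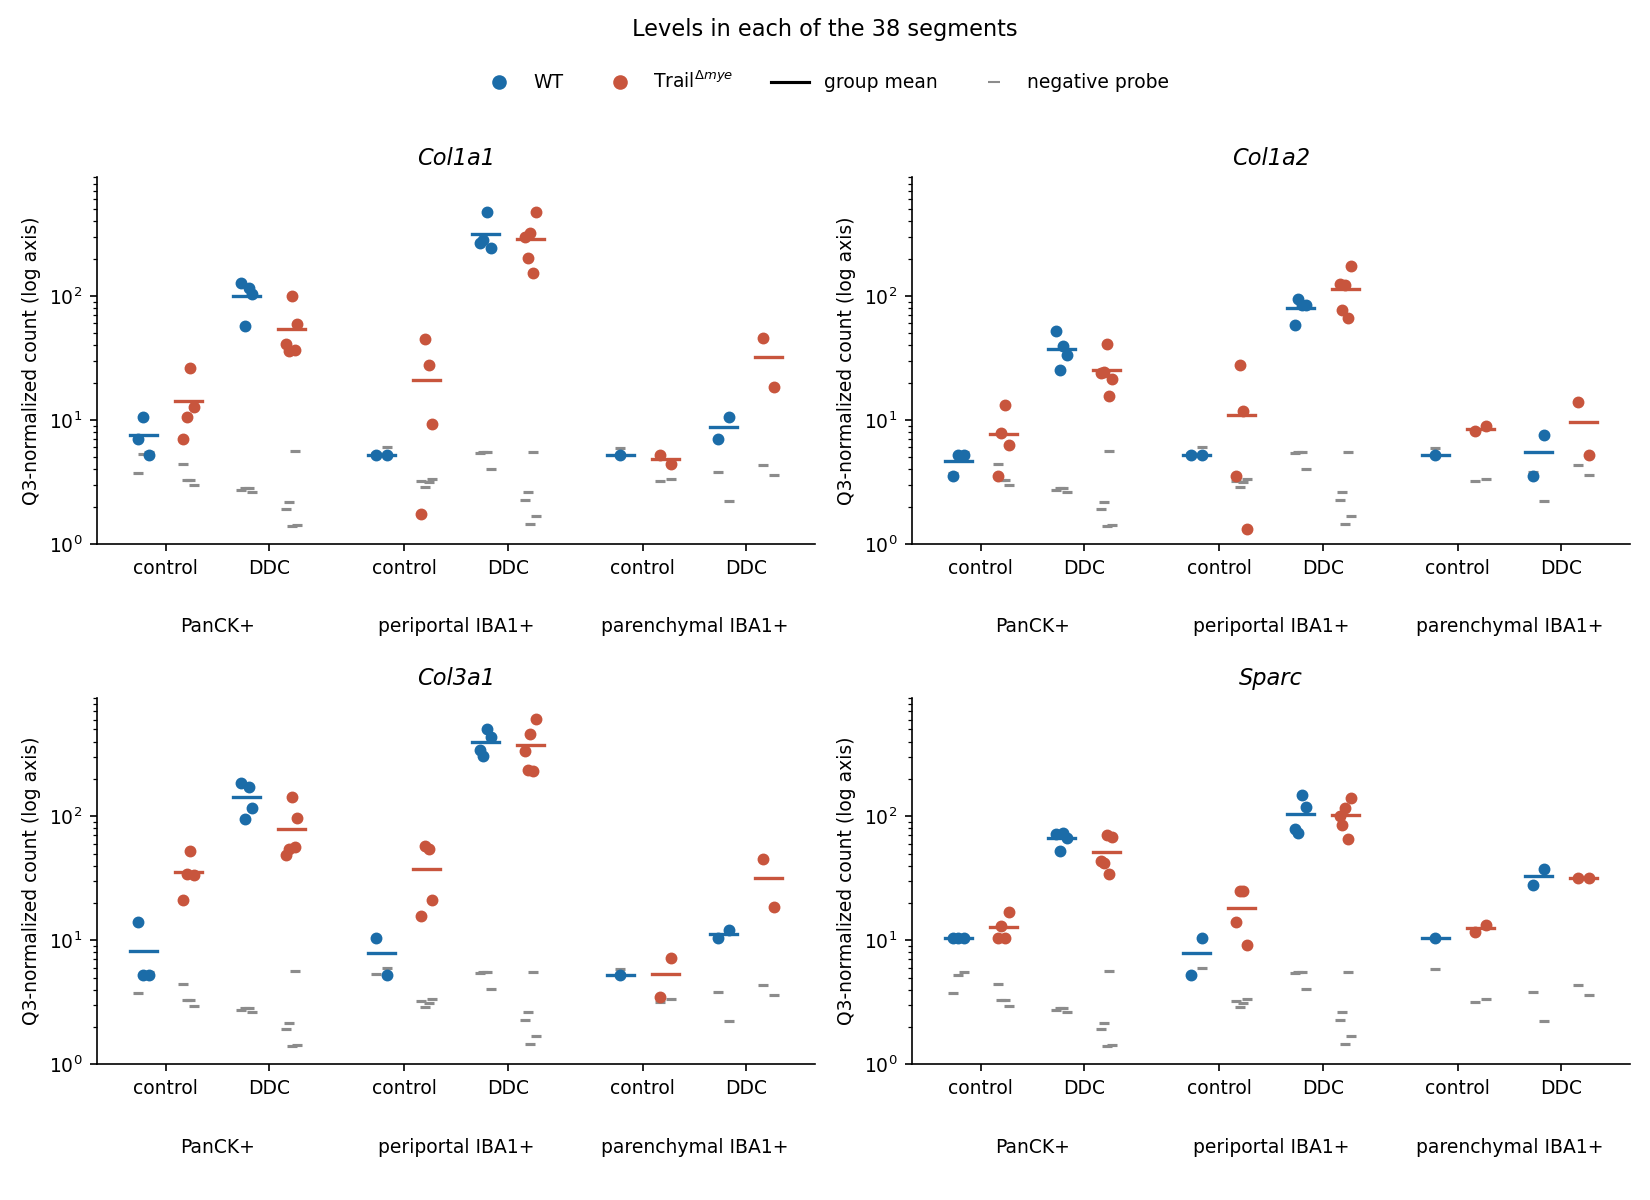
Q3-normalized counts (log axis) of the 4 genes in each of the 38 segments, by segment class and diet, with WT and TrailΔmye mice side by side; points are segments, bars are group means and short grey bars the negative probe in the same segment. In periportal IBA1+ segments of DDC-fed mice Col1a1 lies between 152 and 476, against 1.75 to 44.6 on the control diet.

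In periportal IBA1+ segments of *TrailΔmye* mice, all 4 genes rose on the DDC diet. *Col1a1* was at 1.75, 44.6, 27.6 and 9.19 on the control diet and at 297, 201, 322, 152 and 476 on DDC. *Col1a2* was at 3.50, 27.6, 11.8 and 1.31 on the control diet and at 125, 77.6, 123, 66.0 and 176 on DDC. The ROI 027 segment was the highest control for both type I chains, and it remained below every DDC segment. *Col3a1* was at 15.8, 57.8, 54.5 and 21.0 against 336, 238, 462, 232 and 603. *Sparc* was at 14.0, 24.9, 24.9 and 9.19 against 101, 84.8, 116, 66.0 and 140. No group overlapped. The log2 fold change was 3.73 ± 0.438 (SE) for *Col1a1*, 3.29 ± 0.414 for *Col1a2*, 3.28 ± 0.386 for *Col3a1* and 2.41 ± 0.343 for *Sparc* (edgeR quasi-likelihood test, adjusted p from 6.15e-09 to 5.31e-07). All 4 members were called, where 9.38% of all genes were called in either direction. Without ROI 035 the log2 fold changes were 3.88, 3.44, 3.40 and 2.53. These calls held in each of the 22 alternative settings and leave-outs run for this comparison.

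In WT mice the same comparison rested on 2 control segments. *Col1a1* and *Col1a2* were at 1 count in both of them, which is a level of 5.25. On DDC *Col1a1* was at 268, 284, 473 and 242, and *Col1a2* at 57.8, 94.5, 84.0 and 84.0. Against a floor of 3 counts in each control segment, the DDC mean was 20.1-fold higher for *Col1a1* and 5.08-fold higher for *Col1a2*. These folds carry no counting error. The scaled ratios of the counts themselves were 58.7 (counting interval 16.1 to 487) and 15.3 (4.09 to 129). *Col3a1* held 3 counts in the control segments together and 344 on DDC, a scaled ratio of 51.0 with a counting interval of 17.3 to 248. For *Sparc* the counts were 3 and 91, with a ratio of 13.5 (4.47 to 66.6). All 4 members were called (adjusted p from 1.61e-06 to 0.0135), where 1.19% of all genes were called in either direction. Without either control segment, *Col1a2* and *Sparc* were no longer called, and 2 members remained. With thinned counts *Col1a2* was not called either (log2 fold change 2.78, adjusted p = 0.0547).

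In PanCK+ segments all 4 genes rose on DDC in WT mice, and 3 of them in *TrailΔmye* mice. In WT mice *Col1a1* was at 7.00, 10.5 and 5.25 on the control diet and at 126, 56.7, 116 and 103 on DDC. In *TrailΔmye* mice it was at 7.00, 10.5, 26.3 and 12.6 against 41.2, 35.7, 100, 36.4 and 58.8. *Col3a1* was at 14.0, 5.25 and 5.25 against 185, 94.5, 171 and 116 in WT mice. In *TrailΔmye* mice it was at 21.0, 34.1, 52.5 and 33.6 against 48.9, 53.9, 142, 56.9 and 95.8. The lowest DDC value of *Col3a1* thus lay within the control range of *TrailΔmye* mice, while the WT groups were apart. *Col1a2* was at 1 count in each WT control segment, and its DDC mean was 2.68-fold above a floor of 3 counts. The scaled ratio of its counts was 8.18 (counting interval 2.68 to 40.7). *Sparc* was at 10.5 in all 3 WT control segments and between 52.5 and 73.5 on DDC.

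All 4 members were called for the diet in WT PanCK+ segments, where 0.910% of all genes were called in either direction. Without the control segment of ROI 001, *Col1a2* was not called (adjusted p = 0.12). In *TrailΔmye* PanCK+ segments 3 of 4 were called, where 2.10% of all genes were. The log2 fold change in *TrailΔmye* mice was 1.91 ± 0.404 for *Col1a1*, 1.64 ± 0.425 for *Col1a2* and 1.97 ± 0.385 for *Sparc* (adjusted p = 0.00123, 0.0152 and 0.000318). For *Col3a1* it was 1.14 ± 0.350 (adjusted p = 0.0628). Without the ROI 035 segment the values were 2.04, 1.79, 2.09 and 1.25 in the same order, and *Col3a1* was called (adjusted p = 0.00479), as it was without ROI 032 or ROI 033. Of the 23 alternative settings and leave-outs run for this comparison, 5 called *Col3a1*, these leave-outs among them. *Col1a2* was not called without the segment of ROI 026, 027, 029 or 034 (log2 fold changes 1.39 to 1.64), nor with TMM factors (1.43) or DESeq2 (1.38). With all PanCK+ segments thinned to the smallest total, the log2 fold changes were 1.34 for *Col1a1*, 1.05 for *Col1a2*, 1.65 for *Sparc* and 0.79 for *Col3a1*, all still above 0 and none called (adjusted p from 0.144 to 0.687), where 0.512% of all genes were called.

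Markers of other cell types moved in the same PanCK+ segments. The summed level of 9 hepatocyte markers was 5830 to 8876 on the control diet and 1693 to 2874 on DDC in WT mice, and 3653 to 8715 and 910 to 3197 in *TrailΔmye* mice. The hepatocyte genes *Mup13* and *Fabp1* fell in both genotypes, *Pck1* in WT and *Cyp2e1* and *Alb* in *TrailΔmye* mice. Macrophage markers, 10 genes, summed to levels of 57.8 to 84.0 on the control diet and 113 to 152 on DDC in WT mice, and 52.5 to 108 and 105 to 160 in *TrailΔmye* mice, where the complement genes *C1qb* and *C1qc* rose. The part of these cells in the members' levels was not tested.

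The genotypes were compared within each diet, which asks whether loss of TRAIL from myeloid cells goes with more or less collagen transcript. In PanCK+ segments of DDC-fed mice, each of the 4 genes had a lower mean in *TrailΔmye* than in WT mice. *Col1a2* averaged 25.2 ± 9.31 (n = 5) in *TrailΔmye* and 37.5 ± 11.2 (n = 4) in WT mice, and *Sparc* 51.5 ± 16.5 and 66.2 ± 9.52. The log2 difference, *TrailΔmye* over WT, was -0.85 for *Col1a1* (95% interval -1.43 to -0.27), -0.56 for *Col1a2* (-1.14 to 0.01), -0.80 for *Col3a1* (-1.39 to -0.22) and -0.34 for *Sparc* (-0.90 to 0.22). None of the 4 members was called after adjustment over all genes (adjusted p from 0.316 to 0.755), where 0.152% of all genes were called in either direction. Without ROI 035 the differences were -0.72, -0.40, -0.69 and -0.21 in the same order, none called. With low-count genes removed by edgeR's filter, 2 members were called, *Col1a1* and *Col3a1*, where 9.58% of the 1012 genes left were called. In periportal IBA1+ segments of DDC-fed mice the genotypes lay close together. The log2 difference was -0.13 for *Col1a1* (-0.87 to 0.62), 0.49 for *Col1a2* (-0.26 to 1.25), -0.09 for *Col3a1* (-0.77 to 0.59) and -0.06 for *Sparc* (-0.71 to 0.59). None was called, where 0.0190% of all genes were called in either direction. Without ROI 035 the values were 0.04, 0.64, 0.04 and 0.07, also not called.

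On the control diet, the 4 genes had higher means in *TrailΔmye* than in WT segments of the periportal classes. *Col3a1* averaged 35.3 ± 13.0 (n = 4) in *TrailΔmye* PanCK+ segments and 8.17 ± 5.05 (n = 3) in WT ones, and the groups did not overlap. Its log2 difference was 2.0 ± 0.674 (adjusted p = 0.842). None of the 4 members was called, where 0.218% of all genes were called in either direction. The periportal IBA1+ log2 differences were 2.02, 1.10, 2.27 and 1.25 for *Col1a1*, *Col1a2*, *Col3a1* and *Sparc*. None was called, where 0.199% of all genes were called in either direction. With thinned counts *Col1a2* turned to -0.62, not called, where the median over all genes went from -0.08 to -0.84. The WT values behind these differences are 1 to 4 counts a segment.

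The change with diet was then compared between the genotypes. In PanCK+ segments the interaction, the log2 change in *TrailΔmye* minus that in WT mice, was -1.78 for *Col1a1*, -1.35 for *Col1a2*, -2.80 for *Col3a1* and -0.65 for *Sparc*. None of the 4 members was called, where 0.114% of all genes were called in either direction. *Col3a1* had an adjusted p of 0.147. It was the 1 member called with TMM factors, with total counts alone, with the filter on low counts, with limma, with thinned counts and with counts of 1 set to 0, and it was not called with DESeq2. Under those settings 0.0474% to 1.68% of the genes tested were called. Without ROI 035 the interactions were -1.64, -1.18, -2.68 and -0.52, none called. The interaction in periportal IBA1+ segments was -2.15, -0.61, -2.35 and -1.31 in the same order. None of the 4 was called, where 0.0569% of all genes were called in either direction. Without ROI 035 they were -1.99, -0.46, -2.23 and -1.19, and with thinned counts *Col1a2* turned to 0.85, none of them called. Thinning moved the median interaction over all genes as well, from 0.14 to 0.70.

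**Figure D2:**
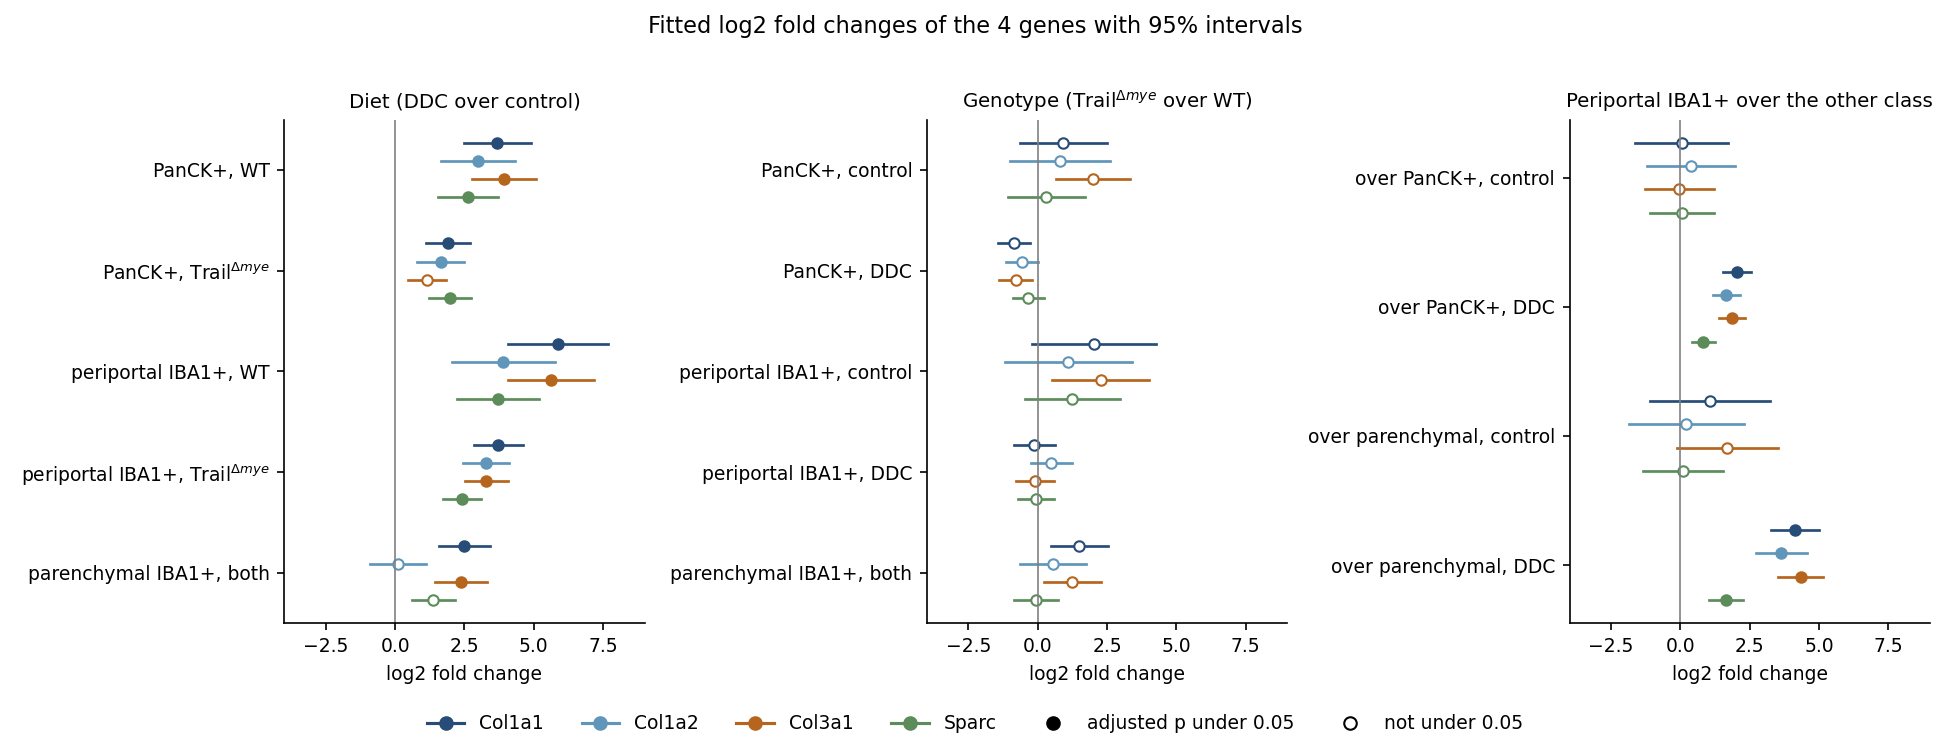
Fitted log2 fold changes of the 4 genes with their 95% intervals for diet (left), genotype (middle) and periportal IBA1+ segments over the other classes (right); filled points have an adjusted p under 0.05. All diet differences and all class differences on DDC have their point to the right of 0, and no genotype difference is filled.

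In parenchymal macrophage segments *Col1a1* and *Col3a1* rose on DDC, to levels far below the periportal ones, and *Col1a2* did not pass the test. *Col1a1* was at 5.25 in the single WT control segment and at 5.25 and 4.42 in the *TrailΔmye* control segments. On DDC it was at 7.00 and 10.5 in WT and at 45.5 and 18.4 in *TrailΔmye* mice. *Col3a1* was at 5.25, 3.50 and 7.19 on the control diet, and at 10.5, 12.0, 45.5 and 18.4 on DDC. Every DDC segment was above every control segment for both genes. In WT mice this rests on 1 control count against 2 and 7 for *Col1a1*, and 1 against 3 and 8 for *Col3a1*. The scaled ratios in WT mice were 1.8 (counting interval 0.249 to 78.9) and 2.2 (0.320 to 94.7). In *TrailΔmye* mice they were 6.22 (3.09 to 12.6) and 5.56 (2.82 to 11.0). *Col1a2* was at 5.25, 8.17 and 8.85 on the control diet and at 3.50, 7.50, 14.0 and 5.25 on DDC, and the groups overlapped. *Sparc* was at 10.5, 11.7 and 13.3 against 28.0, 37.5, 31.5 and 31.5, with no overlap.

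With genotype as a term in the fit, the log2 change with diet in parenchymal segments was 2.49 ± 0.448 for *Col1a1* (adjusted p = 0.00293) and 2.36 ± 0.457 for *Col3a1* (adjusted p = 0.00630). It was 1.38 ± 0.375 for *Sparc* (adjusted p = 0.0952) and 0.11 ± 0.487 for *Col1a2* (adjusted p = 0.994). Thus 2 of 4 members were called, where 0.759% of all genes were called in either direction. The count fell to 0 without the ROI 037 segment of a DDC-fed *TrailΔmye* liver (log2 changes of 1.76 for *Col1a1* and 1.66 for *Col3a1*), with limma (1.67 and 1.77) and with thinned counts (2.38 and 2.19). None of the members was called for genotype in these segments (log2 differences of 1.5, 0.55, 1.25 and -0.06 for *Col1a1*, *Col1a2*, *Col3a1* and *Sparc*), where 0.152% of all genes were called in either direction.

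Within a periportal ROI of a DDC-fed mouse, the IBA1+ segment held more of each member than the PanCK+ segment beside it, in 9 of 9 ROIs. The ratio of the Q3-normalized counts ran from 2.12 to 8.09 for *Col1a1* (median 4.17), from 1.11 to 8.19 for *Col1a2* (median 3.16), from 1.84 to 6.88 for *Col3a1* (median 3.79) and from 1.10 to 2.33 for *Sparc* (median 1.93). *Sparc* was thus the gene that differed least between the segments of a ROI. The fitted log2 difference on DDC, as the mean over genotypes, was 2.04 ± 0.248 for *Col1a1*, 1.66 ± 0.243 for *Col1a2*, 1.88 ± 0.234 for *Col3a1* and 0.83 ± 0.210 for *Sparc* (adjusted p = 3.19e-10, 1.23e-07, 7.26e-10 and 0.00417). All 4 members were called, where 6.06% of all genes were called in either direction. With the ROI as a replicate block, which pairs the segments of the same piece of tissue, the values were 2.03, 1.65, 1.89 and 0.83, and all 4 were called (adjusted p from 1.95e-17 to 3.56e-05). Without the PanCK+ segment of ROI 035 the log2 differences were 1.98, 1.58, 1.83 and 0.77, and without its IBA1+ segment 2.13, 1.73, 1.94 and 0.90.

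On the control diet the segments of a ROI did not differ in a fixed direction. *Col3a1* was higher in the IBA1+ segment in 3 of 6 control ROIs, *Sparc* in 3, *Col1a1* in 2 and *Col1a2* in 1. The values of both segments were equal in 1, 1, 1 and 3 of these ROIs, and both segments held at most 3 counts in 2, 2, 3 and 4 of them, so that these directions rest on few counts. The fitted log2 differences were 0.05 (95% interval -1.62 to 1.71), 0.37 (-1.22 to 1.97), -0.03 (-1.27 to 1.20) and 0.06 (-1.09 to 1.22) for *Col1a1*, *Col1a2*, *Col3a1* and *Sparc*. None was called, where 3.29% of all genes were called in either direction. Thinned counts turned *Col3a1* to 0.43 and *Sparc* to -1.88, neither called. The control intervals of *Col1a2* and *Sparc* hold their DDC differences. The interaction of diet with class, the DDC difference minus the control difference, was 2.0 for *Col1a1* (adjusted p = 0.463), 1.28 for *Col1a2*, 1.91 for *Col3a1* (adjusted p = 0.284) and 0.77 for *Sparc*. None of the 4 was called, where 0.218% of all genes were called in either direction, although limma called 3, with 2.28% of all genes called. Without the PanCK+ or the IBA1+ segment of ROI 035 the interaction was 1.93 or 2.08 for *Col1a1* and 1.86 or 1.98 for *Col3a1*, none called.

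**Figure D3:**
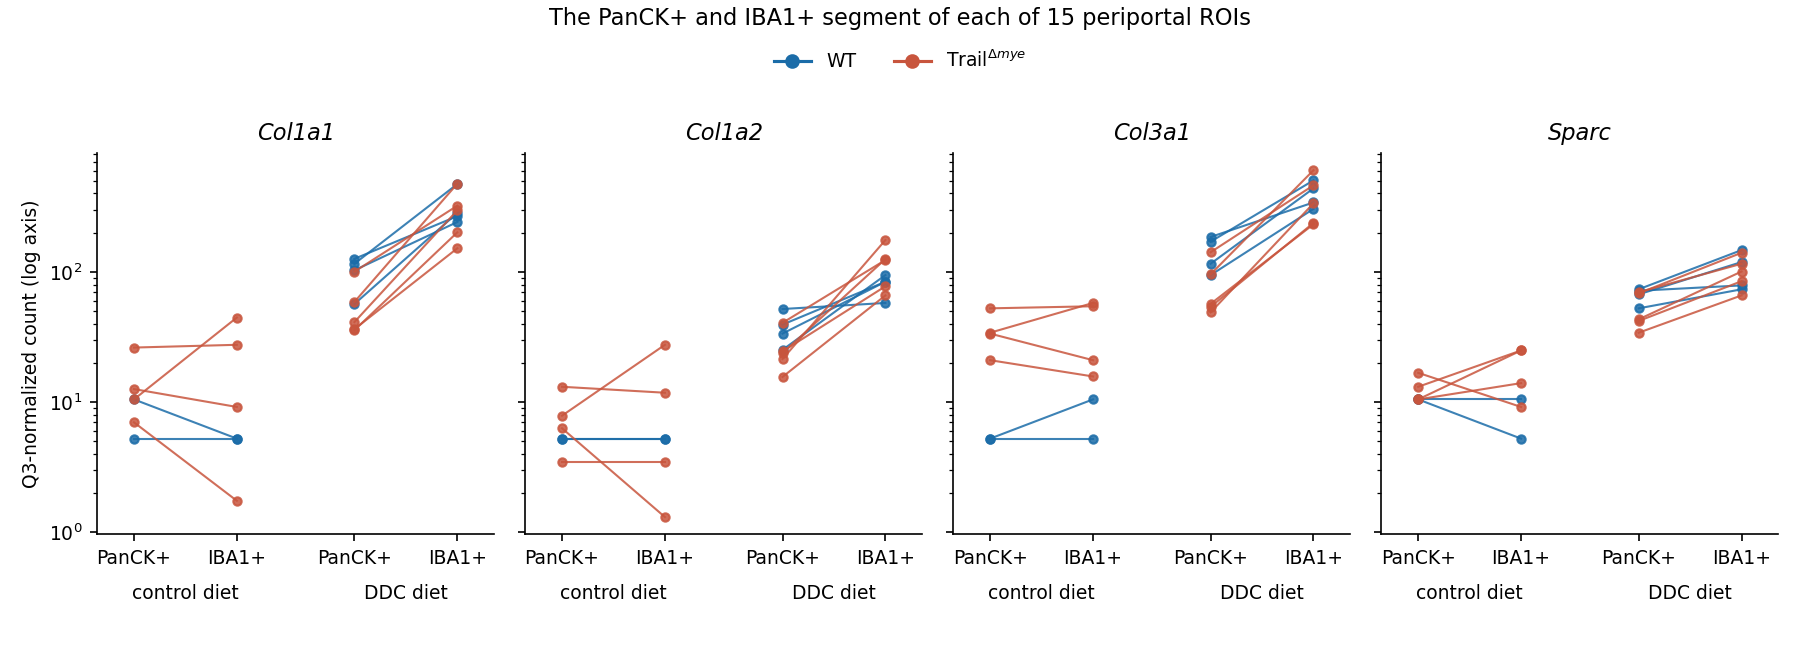
Q3-normalized counts (log axis) in the PanCK+ and the IBA1+ segment of each of 15 periportal ROIs, joined by a line, for control diet (left pair) and DDC (right pair). All 9 DDC lines rise from PanCK+ to IBA1+ for each gene, while the 6 control lines run up, down or level.

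Periportal and parenchymal macrophage segments were compared in the same way. On DDC, *Col1a1* averaged 316 in periportal and 8.75 in parenchymal segments of WT mice, and 290 and 32.0 in those of *TrailΔmye* mice. *Col3a1* averaged 397 and 11.3 in WT and 374 and 32.0 in *TrailΔmye* mice. The fitted log2 difference, periportal over parenchymal, was 4.14 ± 0.436 for *Col1a1*, 3.64 ± 0.457 for *Col1a2*, 4.35 ± 0.405 for *Col3a1* and 1.66 ± 0.311 for *Sparc* (adjusted p = 1.46e-10, 3.80e-08, 2.95e-12 and 0.000207). All 4 members were called, where 3.24% of all genes were called in either direction. Without ROI 035 the values were 4.22, 3.71, 4.41 and 1.72, all called. *Sparc* again showed the smallest of the 4 differences, and its parenchymal level on DDC, 31.5 to 32.8 as group means, exceeded its control level in every class. On the control diet the differences were 1.07, 0.21, 1.69 and 0.10, none of them called, where 0.0569% of all genes were called in either direction. The interaction of diet with place was 3.07, 3.43, 2.65 and 1.56 (adjusted p = 1 for each). None was called, where 0.0284% of all genes were called in either direction, and limma called 3 members with 0.465% of all genes. Without ROI 035 the interaction was 3.15, 3.50, 2.72 and 1.62, none called. These comparisons share their DDC segments with the diet comparisons and are not independent of them. Hepatocyte markers moved with place too. On DDC the summed level of 9 hepatocyte genes was 3705 to 14347 in parenchymal and 1092 to 4905 in periportal IBA1+ segments, and their part in the difference was not tested.

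Ratios between the genes within a segment do not depend on the scaling of that segment. Since each gene is read by its own probe, a ratio is compared between segments only, and does not say which chain was more abundant. Segments with at least 3 counts of both genes were used. The ratio of *Sparc* to *Col1a1* was lower in the IBA1+ than in the PanCK+ segment in 9 of 9 DDC ROIs. It was 0.259 to 0.493 in IBA1+ and 0.569 to 1.18 in PanCK+ segments, with no overlap, and the mean log2 difference was -1.26 ± 0.503 (SD, n = 9 ROIs). The exact sign-flip test gave p = 0.00391, the smallest it can give with 9 ROIs, and 0.0547 after adjustment over the 14 ratio tests run. In *TrailΔmye* periportal IBA1+ segments this ratio was 0.295 to 0.435 on DDC and 0.559 to 1 in the 3 control segments with enough counts (exact permutation p = 0.0357, the smallest possible, adjusted p = 0.1). In DDC-fed PanCK+ segments it was 0.695 to 1.18 in *TrailΔmye* and 0.569 to 0.926 in WT mice (log2 difference 0.53, exact permutation p = 0.0317, adjusted p = 0.1). *Col1a1* over *Col1a2* was higher in the IBA1+ segment in 6 of 9 DDC ROIs (mean log2 difference 0.39, exact sign-flip p = 0.0469, adjusted p = 0.109).

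The ratio of the type I chains was compared between the genotypes in DDC-fed mice. No difference passed after adjustment, which no test of this size could do alone. In periportal IBA1+ segments *Col1a1* over *Col1a2* was 4.64, 3.00, 5.63 and 2.88 in WT and 2.37, 2.59, 2.61, 2.30 and 2.71 in *TrailΔmye* mice. The groups did not overlap, and the mean log2 difference was -0.62, *TrailΔmye* minus WT. The exact permutation test gave p = 0.0159, the smallest this design allows, and 0.1 after adjustment. The WT ratios rest on 11 to 24 counts of *Col1a2* and the *TrailΔmye* ratios on 96 to 333. In PanCK+ segments the same ratio was 2.25 to 3.06 in WT and 1.46 to 2.75 in *TrailΔmye* mice (exact permutation p = 0.159, adjusted p = 0.278). In the control parenchymal segments of *TrailΔmye* mice, by contrast, it was 0.643 and 0.5. There *Col1a1* held 9 and 8 counts, *Col1a2* 14 and 16 and the negative probe 5.48 and 6.08, so both chains were near the background. On DDC the ratio was 3.25 in the 1 parenchymal segment of these mice with enough counts, which held 4 counts of *Col1a2*. It was 1.4 in the 1 such segment of DDC-fed WT mice, from 7 and 5 counts.

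The ratio of *Col3a1* to *Col1a1* was 2.0 to 3.25 in 3 control PanCK+ segments of *TrailΔmye* mice and 1.19 to 1.63 in the 5 DDC ones, a mean log2 difference of -0.84 (exact permutation p = 0.0357, the smallest possible, adjusted p = 0.1). Among DDC-fed mice it lay between 1.07 and 1.81 in every periportal segment of either class and genotype. Its genotype difference in log2 units was 0.03 in both PanCK+ and periportal IBA1+ segments. None of the 14 ratio tests passed 0.05 after adjustment. No test could pass alone, since even the smallest p of the sign-flip test, 0.00391, adjusts to 0.0547. The smallest p of the permutation tests is larger, so that failing to pass says little about the ratios. Without either segment of ROI 035 none passed either; the *Sparc* over *Col1a1* difference between the segments of DDC ROIs was -1.28 then, the genotype difference of *Col1a1* over *Col1a2* in IBA1+ segments -0.59, and the diet difference of *Col3a1* over *Col1a1* in PanCK+ segments -0.86. No ratio could be formed for any WT control segment, all of which fell below 3 counts of at least 1 of the genes in each pair.

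**Figure D4:**
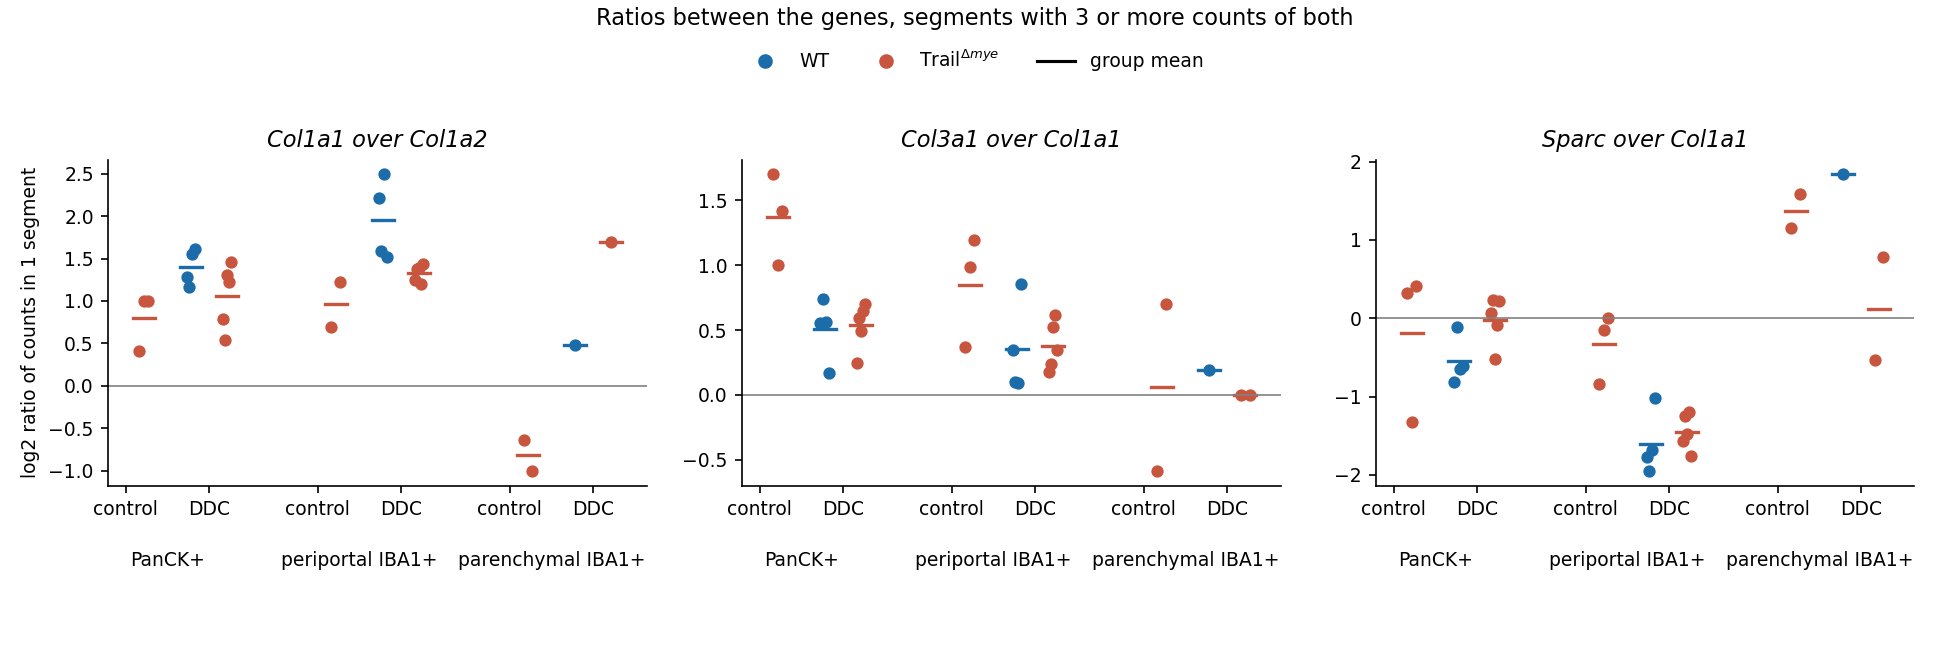
Log2 ratio of the counts of a pair of genes within a segment, for segments with 3 or more counts of both, by class, diet and genotype; points are segments and bars are group means. Sparc over Col1a1 is below -1 in all 9 IBA1+ segments of DDC-fed periportal ROIs and above -1 in all 9 PanCK+ segments of the same ROIs.

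Other genes of collagen fibrils and their assembly were followed in 4 lists. In the diet comparison of *TrailΔmye* periportal IBA1+ segments, 12 of 16 fibril-associated and matricellular genes rose, among them *Sparcl1* (log2 fold change 2.85), a relative of *Sparc*, *Col6a3* (2.35), a chain of the beaded type VI collagen, and the small proteoglycans *Bgn* (2.03) and *Lum* (1.97), which coat collagen fibrils. The median log2 fold change of this list was 1.56, beside 0.07 over all genes. Of the other fibrillar chains, 2 of 4 rose, *Col5a2* (2.09) and *Col5a1* (1.99), the chains of the type V collagen that nucleates type I fibrils. Of 18 folding, processing and cross-linking genes 7 rose, among them the cross-linking enzyme gene *Loxl1* (1.90), the collagen chaperone gene *Serpinh1* (1.71), and *Adamts2* (1.47) and *Pcolce* (1.39), which serve in cutting the propeptides off procollagen. The collagen uptake receptor gene *Mrc2* (1.15) and the scavenger receptor gene *Stab1* (0.91) rose among 8 receptor genes. In this comparison 9.38% of all genes were called.

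In WT periportal IBA1+ segments, *Bgn* (3.21) and *Dcn* (2.69), another small proteoglycan, were the genes called in these lists, where 1.19% of all genes were called. The median of the fibril-associated list was 1.67 beside -0.16 over all genes. In PanCK+ segments none of these genes was called for the diet in WT mice, where 0.910% of all genes were called. In *TrailΔmye* mice *Thbs1* (1.98), the matricellular thrombospondin, *Colgalt1* (1.55), which glycosylates collagen, and the collagen receptor gene *Ddr1* (1.43) rose, where 2.10% of all genes were called. The fibril-associated median in PanCK+ segments was 0.31 in WT and 0.10 in *TrailΔmye* mice, beside -0.17 and 0.18 over all genes. In parenchymal segments no gene of the 4 lists was called for diet, where 0.759% of all genes were called. For the 2 genotype comparisons in each periportal class and for genotype in the parenchyma, no gene of these lists was called either. There 0.0190% to 0.218% of all genes were called. With lists this short, no call lies near such shares.

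Between the segments of DDC-fed periportal ROIs, 12 of 16 fibril-associated genes were higher in IBA1+ than in PanCK+ segments, where 6.06% of all genes were called in either direction. They included *Dcn* (1.94), *Sparcl1* (1.77), *Bgn* (1.73) and *Col6a1* (1.67), and the list's median was 1.4 beside 0.10 over all genes. *Col5a1* (1.53) and *Col5a2* (1.25) were also higher, as were *Loxl2* (1.41), *Adamts2* (1.36) and *Pcolce* (0.93). Of 8 receptor genes, *Stab1* (1.47) and *Mrc2* (1.16) were higher and *Ddr1* (-2.10), which epithelial cells express, was lower in IBA1+ segments. Against parenchymal segments, 9 of 16 fibril-associated genes were higher in periportal IBA1+ segments, where 3.24% of all genes were called in either direction, with *Col6a3* (2.98) and *Col6a1* (2.91) at the top, and *Col5a2* (3.17), *Serpinh1* (2.17) and *Mrc2* (2.19) were higher too. The lists were chosen with earlier results known, and nothing particular to them was tested.

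**Figure D5:**
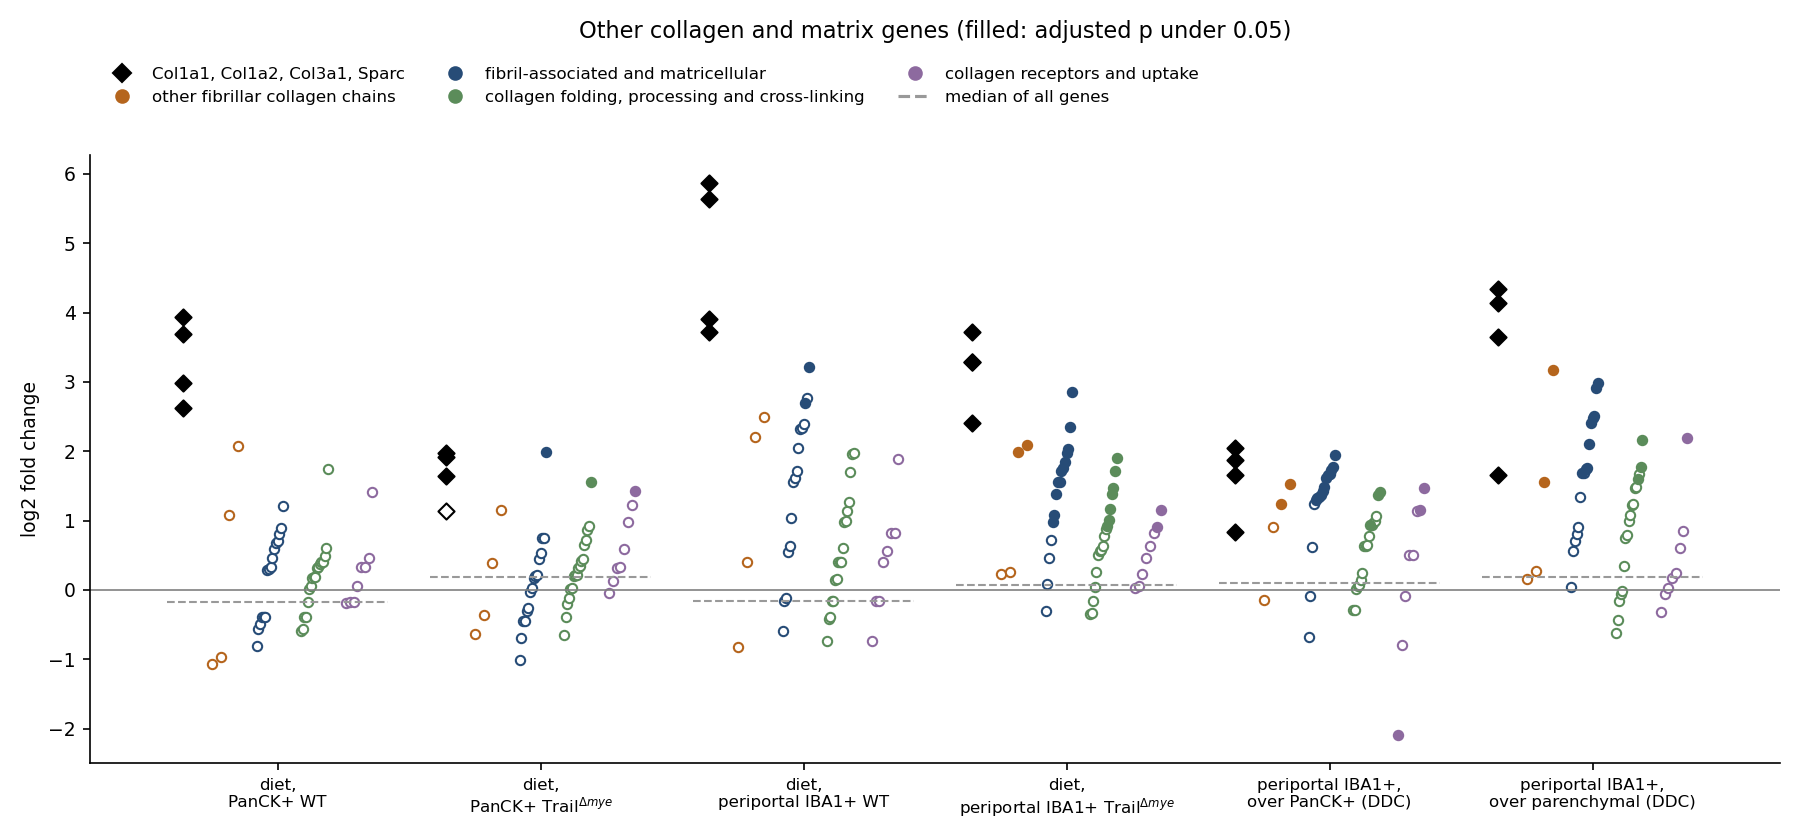
Log2 fold changes of the 4 genes (diamonds) and of 4 lists of other collagen genes (circles) in 6 comparisons; filled symbols have an adjusted p under 0.05 and dashed lines are the median over all genes. The fibril-associated list has 12 of 16 filled circles for diet in TrailΔmye periportal IBA1+ segments and none for diet in WT PanCK+ segments. Over all genes 9.38% and 0.910% were called in these comparisons.

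Markers of mesenchymal cells, the known source of fibrillar collagen, moved in part with the members. The summed level of 12 mesenchymal markers was 73.5 to 94.5 in control WT PanCK+ segments and 235 to 313 on DDC, and 60.4 to 103 and 122 to 223 in *TrailΔmye* mice. *Rgs5*, a pericyte gene, rose by 5.44 ± 0.656 in log2 units in WT and by 3.13 ± 0.421 in *TrailΔmye* PanCK+ segments, and it was the 1 marker of 12 called there. The median log2 fold change of the 12 was -0.40 in WT and -0.12 in *TrailΔmye* PanCK+ segments, beside -0.17 and 0.18 over all genes, so that the higher sum on DDC was not shared by the middle of the list. *Pdgfrb*, the receptor gene that marks stellate cells and fibroblasts, was at -1.12 ± 0.755 and -0.21 ± 0.496 in the same comparisons, not called. In the control PanCK+ segments of WT mice, 6 of the 12 markers were at 1 count in every segment, and in the control periportal IBA1+ segments of WT mice 10 were.

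Other mesenchymal markers moved in periportal IBA1+ segments. With diet in *TrailΔmye* mice *Pdgfrb* (log2 1.98), *Cygb* (1.68), a stellate cell globin gene, and *Mfap4* (1.25), a microfibril gene, rose. In this comparison 9.38% of all genes were called in either direction. The summed level of the list was 84.0 to 126 on the control diet and 147 to 189 on DDC, and in WT mice 63.0 to 73.5 and 105 to 247. In DDC-fed ROIs *Cygb* (1.93), *Pdgfrb* (1.65), *Mfap4* (1.64), *Acta2* (1.3) and *Tagln* (1.19), the last 2 of them contractile genes of myofibroblasts, were higher in IBA1+ than in PanCK+ segments, and *Rgs5* was lower (-2.54). Of all genes 6.06% were called in either direction there. *Rgs5* is part of the summed level of the list, and its weight in the sums below was not tested. Among DDC-fed WT mice the summed level of the list was 105 to 247 (median 191) in periportal IBA1+ and 235 to 313 (median 259) in PanCK+ segments, the opposite order to the members, and among DDC-fed *TrailΔmye* mice it was 147 to 189 and 122 to 223 (medians 188 and 183). In DDC-fed parenchymal segments it was 84.0 to 109. The summed level of 9 hepatocyte markers in periportal IBA1+ segments was 11426 to 23666 on the control diet and 1092 to 4905 on DDC. The part of these cell types in the members' levels was not tested.

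Across all 38 segments the members followed each other closely. Pearson's r of log2(Q3-normalized count + 1) was 0.96 between *Col1a1* and *Col3a1*, 0.95 between *Col1a1* and *Col1a2*, and 0.89 between *Col3a1* and *Sparc*, the lowest of the 6 pairs. Among 3085 other genes with a mean count of at least 10, those with a pattern most like the mean of the members were *Lgals1* (0.89), *Vim* (0.88), *Mgp* (0.87), *Igfbp7* (0.86), *Ccdc80* (0.85), *Sh3bgrl3* (0.85), *Col6a3* (0.84), *Serpine2* (0.84), *S100a4* (0.84) and *Col5a2* (0.83). *Mgp*, which encodes a matrix protein that binds calcium, was the third gene most like *Col3a1* (0.90), after the type I chains, and the remaining nearest genes of each member were other members. The segments share ROIs, depth and diet, so that these values describe the table and are not tests.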

How the data were processed

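Expected counts were deposited by the authors as 1 value per gene target and segment, made with the GeoMx mouse whole-transcriptome probes, 18 cycles of amplification, sequencing and the authors' filters, which kept targets seen in over 10% of ROIs. The lowest value was 1, held by 27.2% of the values, and whether it stands for 0 was not given. The signal values deposited by the authors are their Q3-normalized counts, and a check found them to equal those counts multiplied by 1 scaling factor a segment (75th percentile 10.5 in each). The processing notes name bcl2fastq and mm10, while for the aligner and the tool versions nothing is given in the sources used here. The negative probe (0.00285% of counts) was kept out of library sizes and tests. No deposited column of another series was found.

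The 3 genes with fractional values were rounded. Diet, genotype and their interaction within each segment class, and periportal IBA1+ segments against the other classes (mean over genotypes), were fitted over all 10547 genes with the quasi-likelihood test of edgeR 4.0.16 (R 4.3.3, upper-quartile factors, no further filter), two-sided, with Benjamini-Hochberg adjustment and calls under 0.05. This left residual degrees of freedom of 12 for PanCK+, 11 for periportal IBA1+ and 4 for parenchymal IBA1+ segments (diet and genotype as additive terms), with 23 for IBA1+ against PanCK+ and 14 for periportal against parenchymal segments. The SE is the size of the log2 fold change over the square root of F, and 95% intervals use the t quantile. Ratios between genes were tested by exact permutation (SciPy 1.17.1), and adjusted over 14 tests. A group at 1 count in every segment was also set against a floor of 3 counts a segment, and the fold over that floor carries no counting error. Counting intervals cover counting error only.

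The members, the gene lists and the tests were chosen with earlier results of these data known. The genes named are the members, up to 4 called genes a list by size of change, the markers, and the genes with the highest Pearson correlation. PanCK+ and IBA1+ segments with the same ROI number come from the same piece of tissue, so that the numbers pair them. The correlation of their deviations from the group means over 3089 genes had a median of 0.04 over 15 ROIs (-0.02 to 0.55) and was over 0.1 in 5. The alternatives were TMM factors, total counts alone, DESeq2 1.42.0, limma 3.58.1 on log2(Q3-normalized count + 1), edgeR's filterByExpr, counts thinned to the smallest total of the fit, counts of 1 set to 0, the ROI as a block, and each segment left out in turn. The fits were tested on simulated data. Python 3.11.15 and matplotlib 3.10.9 drew the plots. Promoter sequences are from a table of RefSeq promoters, in which 3 of the 4 members were matched.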

Additional observations from a re-analysis of the deposited data

How the results depend on the processing

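The members' diet calls in TrailΔmye periportal IBA1+ segments and the calls of periportal IBA1+ over PanCK+ and over parenchymal segments on DDC kept their direction and their side of the threshold under every alternative and leave-out that was run. With 1 to 5 segments a group, WT control segments at 1 to 4 counts limit what any fold change in WT can show. Thinning lowered the members called for diet in TrailΔmye PanCK+ segments from 3 to 0, TMM factors and DESeq2 also lost *Col1a2* there, and thinning lost it in WT periportal IBA1+ segments. In parenchymal segments the diet calls went from 2 to 0 with limma and with thinning, and to 1 with filterByExpr, which tested only *Sparc* of the members. Calls were gained in comparisons with none: for genotype on the control diet in PanCK+ segments 1 with limma, for genotype on DDC there 2 with filterByExpr, and for the PanCK+ interaction 1 with TMM, total counts, filterByExpr, limma, thinning and counts of 1 set to 0. For the interaction of diet with class (IBA1+ against PanCK+) 1 member was called with filterByExpr, 3 with limma and 1 with counts of 1 set to 0, and for that of diet with place 3 with limma. With at least 10 counts of both genes 1 ratio test passed (Sparc over Col1a1 in DDC ROIs, adjusted p = 0.0352). Its segments all met this count before, so the pass comes from the fewer tests that remain. Leaving out each segment in turn gave 3 to 4 members called for diet in WT and 2 to 4 in TrailΔmye PanCK+ segments, 0 to 1 for the PanCK+ interaction, 2 to 4 for diet in WT periportal IBA1+ segments, 0 to 2 for diet in parenchymal segments, and 0 to 1 ratio tests. The gained PanCK+ interaction came without the ROI 034 segment, and the gained ratio test without any of the control segments of ROIs 027 to 029, where fewer tests remain.

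With the ROI as a replicate block, 4 members were called on DDC and 0 on the control diet or for the interaction, as without it. On the control diet the log2 difference of IBA1+ over PanCK+ turned sign for *Col1a1* (-0.047) and *Col3a1* (0.30).

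No value that turned sign was called. On the control diet, IBA1+ over PanCK+, *Col1a1* turned to -0.11 (TMM), -0.37 (total counts), -0.21 (DESeq2), -0.30 (filterByExpr), -0.19 (limma) and -2.62 (counts of 1 set to 0), *Col1a2* to -0.039 (total counts), *Col3a1* to 0.43 (thinned), and *Sparc* to -0.086, -0.35, -0.17, -0.28, -0.016, -1.88 and -0.22 (TMM, total counts, DESeq2, filterByExpr, limma, thinned, counts of 1 set to 0). Over parenchymal control segments, limma turned *Col1a2* to -0.14 and *Sparc* to -0.013, and counts of 1 set to 0 turned *Sparc* to -0.19. In periportal IBA1+ segments *Col1a2* turned for genotype on the control diet to -0.62 (thinned) and for the interaction to 0.10 (limma) and 0.85 (thinned). For genotype in parenchymal segments *Sparc* turned to 0.27 (total counts), 0.024 (DESeq2), 0.37 (filterByExpr), 0.066 (limma) and 0.47 (thinned). Over the leave-outs, values that turned sign ranged from -0.38 to 0.13 (*Col1a1*), -0.33 to 0.045 (*Col3a1*) and -0.20 to 0.14 (*Sparc*) for genotype on DDC in periportal IBA1+ segments, from -0.95 to 0.16 for the interaction of *Col1a2* there, from -0.38 to 0.62 for diet (*Col1a2*) and -0.15 to 0.19 for genotype (*Sparc*) in the parenchyma. For IBA1+ over PanCK+ on the control diet they ranged from -0.22 to 0.28 (*Col1a1*), -0.00069 to 0.55 (*Col1a2*), -0.32 to 0.34 (*Col3a1*) and -0.22 to 0.27 (*Sparc*), and over parenchymal control segments from -0.16 to 0.38 (*Col1a2*) and -0.19 to 0.30 (*Sparc*). The log2 ratio of *Col3a1* to *Col1a1* between genotypes on DDC ranged from -0.082 to 0.11 in PanCK+ and -0.058 to 0.20 in periportal IBA1+ segments. The control contrasts over parenchymal segments could not be computed without the single WT control segment. The median log2 change of all genes moved with the scaling, for diet in TrailΔmye PanCK+ segments from 0.18 to -0.06 with TMM and -0.15 with DESeq2. Thinning moved it further in periportal IBA1+ segments. There it went from -0.08 to -0.84 for genotype on the control diet and from 0.14 to 0.70 for the interaction. The cause of these changes was not tested.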
